A study of Mus musculus with 12 samples.

Results

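Interferon-induced genes were followed in regulatory T cells (Tregs), a CD4 lineage defined by Foxp3 that holds other immune cells in check. The list held 42 mouse genes induced by type I or type II interferon, chosen by symbol. All 42 were among the 23361 genes of the deposited table, and 39 of them passed a filter on low values, as did 10868 genes in all. The 3 that did not pass were Ifi44, Oasl1 and Oasl2. In all, 4 groups of 3 libraries were compared, all from a mouse model of autoimmune diabetes: Lag3-deficient islet Tregs, Wt islet Tregs, Lag3-deficient Tregs from non-draining lymph nodes (NDL) and Wt NDL Tregs. Lag3 is a co-inhibitory receptor of T cells with MHC class II as a ligand, and the genotype labels read Lag3 or Wt. The description field calls the material cytoplasmic RNA. The sources used here do not give the strain, age and sex of the mice, the way Lag3 was removed, the cells it was removed from or the sorting markers. They do not say whether replicates are different animals, so p-values measure only how far these samples lie apart, which may be technical.

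Interferons bind receptors on the cell surface and activate JAK kinases and, through them, transcription factors. Type I interferon acts mainly through the interferon-stimulated response element (ISRE) of its target genes, and type II interferon (Ifng) mainly through the gamma-activated site (GAS). The induced genes include antiviral effectors such as the Ifit, Oas and Mx families and, prominent in mice, 2 families of large GTPases that act on intracellular pathogens and their vacuoles, the immunity-related GTPases and the guanylate-binding proteins (Gbp). In T cells interferons also influence survival, differentiation and, in Tregs, suppressive function.

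To show the letters that link these genes, the windows from 250 bases before to 50 bases after the annotated start were searched on both strands for 1 ISRE motif, GAAANNGAAA, and 1 GAS motif, TTCNNNGAA (RefSeq, GRCm38.p6). A window was found for 31 of the 42 genes. The ISRE letters stood in 19 of these 31 (61.3%), against 3.99% of all 27025 genes with a window. The GAS letters stood in 11 of 31 (35.5%), against 9.55% of all genes. Both motifs were found in 7 genes and neither in 8. A match is a description of these letters and not a bound site, and a window without them says only that these letters are not in it. Here 7 windows are printed 5′ to 3′ on the strand of the gene, with the matched letters in capitals. The first 4 belong to genes with at least 1 CPM (counts per 1000000 of the scaled library total) in all 12 libraries and the last 3 to genes under 1 CPM in at least 1 library.
Igtp (chr11:58199306-58199605, plus strand): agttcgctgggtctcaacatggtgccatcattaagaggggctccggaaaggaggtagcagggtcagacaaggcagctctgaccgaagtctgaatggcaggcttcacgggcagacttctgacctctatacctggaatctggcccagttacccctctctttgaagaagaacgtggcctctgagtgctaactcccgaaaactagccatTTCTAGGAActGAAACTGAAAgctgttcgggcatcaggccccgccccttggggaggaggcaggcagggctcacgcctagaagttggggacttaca
Irgm2 (chr11:58214727-58215026, plus strand): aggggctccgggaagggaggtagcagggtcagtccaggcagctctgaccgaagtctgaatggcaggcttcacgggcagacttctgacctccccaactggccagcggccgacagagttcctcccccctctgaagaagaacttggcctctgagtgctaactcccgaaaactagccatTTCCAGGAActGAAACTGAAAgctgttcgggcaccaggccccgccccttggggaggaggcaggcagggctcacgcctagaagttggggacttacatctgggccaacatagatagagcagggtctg
Gbp3 (chr3:142559794-142560093, plus strand): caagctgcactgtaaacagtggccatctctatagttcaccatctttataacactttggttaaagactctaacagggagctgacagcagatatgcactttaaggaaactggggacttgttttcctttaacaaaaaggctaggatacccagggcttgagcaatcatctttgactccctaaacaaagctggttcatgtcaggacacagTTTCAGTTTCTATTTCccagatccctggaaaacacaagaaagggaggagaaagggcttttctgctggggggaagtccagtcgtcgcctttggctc
Irf1 (chr11:53769764-53770063, plus strand): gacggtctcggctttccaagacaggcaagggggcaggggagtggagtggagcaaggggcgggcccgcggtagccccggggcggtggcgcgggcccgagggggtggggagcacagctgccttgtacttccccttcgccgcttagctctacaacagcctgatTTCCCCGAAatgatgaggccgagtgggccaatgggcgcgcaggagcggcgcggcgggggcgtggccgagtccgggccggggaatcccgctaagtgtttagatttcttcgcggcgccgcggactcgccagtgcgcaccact
Isg15 (chr4:156200769-156201068, minus strand): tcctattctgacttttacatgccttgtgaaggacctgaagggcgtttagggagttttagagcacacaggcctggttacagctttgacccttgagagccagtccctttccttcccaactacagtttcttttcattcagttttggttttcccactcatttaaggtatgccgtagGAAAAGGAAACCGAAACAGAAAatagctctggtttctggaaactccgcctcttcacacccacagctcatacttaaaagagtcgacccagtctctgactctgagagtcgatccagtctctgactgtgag
Ifit1 (chr19:34640639-34640938, plus strand): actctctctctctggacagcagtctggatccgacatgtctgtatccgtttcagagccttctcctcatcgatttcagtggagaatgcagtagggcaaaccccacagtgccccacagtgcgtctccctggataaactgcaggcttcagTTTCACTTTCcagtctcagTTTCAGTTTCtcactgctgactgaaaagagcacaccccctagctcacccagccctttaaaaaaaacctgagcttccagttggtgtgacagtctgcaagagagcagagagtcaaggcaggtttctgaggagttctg
Oas1a (chr5:120907476-120907775, minus strand): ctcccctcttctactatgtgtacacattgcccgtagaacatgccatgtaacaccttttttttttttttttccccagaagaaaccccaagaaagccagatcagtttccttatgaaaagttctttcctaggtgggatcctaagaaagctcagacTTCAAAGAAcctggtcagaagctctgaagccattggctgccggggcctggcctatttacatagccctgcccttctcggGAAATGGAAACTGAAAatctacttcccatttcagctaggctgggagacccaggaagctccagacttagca

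Igtp and Irgm2, neighbouring GTPase genes, carried a GAS match followed at the same distance by an ISRE match. The GAS match began 45 bases before the start in Igtp and 75 bases before it in Irgm2, and the ISRE matches began 34 and 64 bases before it. Irf1 carried only the GAS motif, Isg15 had 3 overlapping ISRE matches, Gbp3 had 2 overlapping ones, and Ifit1 had 2 separate ones. Oas1a had 2 overlapping ISRE matches close to its start and a GAS match farther upstream. All 4 Gbp genes and all 3 nucleic acid sensors with a window held the ISRE letters, as did 3 of 4 immunity-related GTPases, 4 of 6 antiviral effectors and 2 of 4 OAS genes (oligoadenylate synthetases). The letters were found in 1 of 4 transcription factors and 1 of 5 genes of other roles. Genes of both levels held the motifs. Of the genes at 1 CPM or more in every library, 11 of 18 held the ISRE and 6 of 18 the GAS letters, and of those under 1 CPM in at least 1 library the counts were 8 of 13 and 5 of 13.

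The values in the table are rescaled counts, whole numbers whose library totals all lie between 15232498 and 15370098, so sequencing depth is unknown and no counting error can be given. In each group the column headers number the libraries 1, 2 and 1 again, here called 1a, 2 and 1b. The ribosomal gene Rn45s took 1.26 to 1.68% of the signal in the 4 columns 1b, against 0.149 to 0.571% in the other 8 columns. In 3 libraries (Lag3-deficient islet 2, Lag3-deficient NDL 1b and Wt NDL 2) low whole numbers were missing, a trace of scaling up. Spearman correlations within groups ran from 0.661 to 0.882. Lag3 was listed at 1, 0 and 0 rescaled counts in Lag3-deficient islet libraries, against 40, 48 and 120 in Wt islet libraries. It was at 1, 0 and 3 in Lag3-deficient NDL libraries and 2, 5 and 6 in Wt NDL libraries, so in NDL the gene hardly checks the labels. The Treg markers Foxp3, Il2ra, Ctla4, Ikzf2, Cd4 and Cd3e were present in every library, Foxp3 at 302 to 702 CPM.

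The interferon-induced genes split into a steadily present part and a sporadic one. At least 1 CPM was found in all 12 libraries for 25 of the 42 genes (59.5%), against 5087 genes (21.8%) of the whole table. Among genes past the filter it was 25 of 39, against 46.8% of all tested genes, a smaller contrast. These 25 included all 5 immunity-related GTPases, 5 of 6 Gbp genes, all 4 transcription factors (Stat2, Irf1, Irf7 and Irf9) and 4 of 5 nucleic acid sensors. The other 17 included 13 of the 14 antiviral effectors, OAS and ISG15 system genes, and 9 genes were under 1 CPM in 6 or more libraries. Usp18, the protease that removes Isg15 from proteins and dampens type I receptor signalling, was the 1 gene of those 14 present everywhere, at 1.40 to 68.3 CPM.

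**Figure D1:**
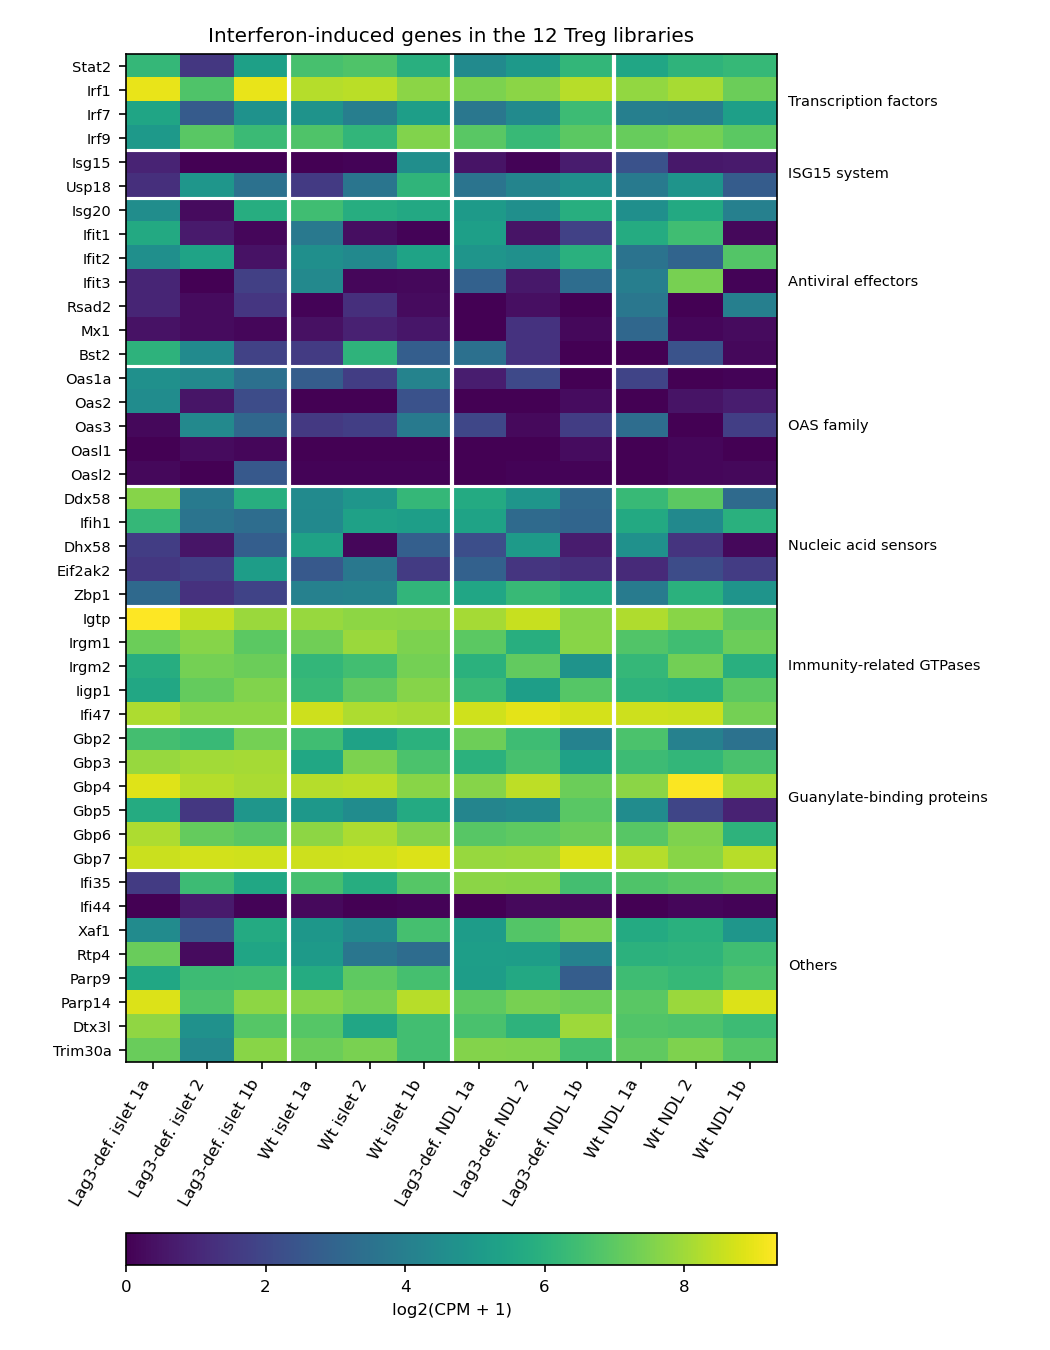
Level of each of the 42 interferon-induced genes (rows, by role) in each of the 12 libraries (columns, by group), as log2(CPM + 1) on the colour scale. The immunity-related GTPases and most Gbp rows are bright in every library, while the ISG15, antiviral and OAS rows are dark in many libraries with single bright cells.

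Per kilobase of exon, the highest mean levels over the 12 libraries were those of the GTPases Igtp, with 139 CPM per kb, and Ifi47, with 133 CPM per kb. Irf1, a transcription factor that both interferon types induce, followed with 70.3 CPM per kb, then Gbp7 with 62.8 and Ifi35 with 61.3 CPM per kb. The median over the immunity-related GTPases was 27.3 CPM per kb and over the Gbp genes 34.9 CPM per kb. It was 15.3 CPM per kb for the transcription factors, 8.40 for the antiviral effectors, 3.86 for the nucleic acid sensors and 0.594 for the OAS genes. The lowest levels were those of Ifi44 (0.0198 CPM per kb), Oasl1 (0.0228) and Oasl2 (0.0761), followed by Mx1 (0.266), a dynamin-like antiviral GTPase.

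The GTPases and Irf1 also set the highest CPM without regard to length. Gbp7 was at 379, 415 and 406 CPM in Lag3-deficient islet libraries (libraries are always given as 1a, 2, 1b), against 392, 407 and 458 CPM in Wt islet libraries. Its NDL values were 237, 241 and 457 CPM with Lag3 deficiency and 315, 205 and 318 CPM in Wt libraries. Gbp7 had the smallest spread between libraries of a group among the 39 tested genes, an SD of 0.332 log2 units. Ifi47, also known as Irg47, was at 290.4, 216 and 214 CPM in Lag3-deficient islet libraries and 397, 289 and 266 CPM in Wt islet libraries. NDL libraries held 401, 498 and 425 CPM with Lag3 deficiency and 397, 382 and 167 CPM in Wt libraries. Ifi47 was the 1 GTPase of 11 whose mean was lower in islets than in NDL.

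Gbp4 was at 465, 310.4 and 281 CPM in Lag3-deficient islet libraries and 314, 333 and 204 CPM in Wt islet libraries. NDL values were 200.2, 336 and 151 CPM with Lag3 deficiency and 206, 623 and 274 CPM in Wt libraries, so its highest value came from Wt NDL 2. Igtp, also known as Irgm3, was at 643, 361 and 241 CPM in Lag3-deficient islet libraries, all above the 236, 215 and 207 CPM of Wt islet libraries. Its NDL values were 269.7, 369 and 198 CPM with Lag3 deficiency and 298, 205 and 131 CPM in Wt libraries, and there the groups overlapped. Reads of Gbp4 and Igtp are uncertain, since Gbp4 shares exon bases with Gbp8 and Gbp9 and Igtp with Irgm2 on the same strand. The same limit holds for Gbp7 with the pseudogene Gm43802, Ifi47 with Olfr56 and Parp14 with Gm49730.

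Irf1 was at 522, 109 and 516 CPM in Lag3-deficient islet libraries and 316, 329 and 210 CPM in Wt islet libraries. NDL libraries held 177, 209 and 318 CPM with Lag3 deficiency and 224, 277 and 151 CPM in Wt libraries. Library Lag3-deficient islet 2 stood below the other 11 for Irf1, as it did for Stat2 (1.86 CPM) and Irf7 (5.42 CPM), and it held the lowest value of 11 of the 42 genes. The share of lowest values over all genes was not counted. This library, among those scaled up, had 927 tested genes at 0, against 399 to 789 in the others, so the count may not be particular to these genes. Parp14, an ADP-ribosyltransferase, was at 455, 105 and 214 CPM in Lag3-deficient islet libraries and 198, 166 and 319 CPM in Wt islet libraries. Its NDL values were 129, 172 and 156 CPM with Lag3 deficiency and 121, 242 and 459 CPM in Wt libraries, and its groups overlapped in every comparison.

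**Figure D2:**
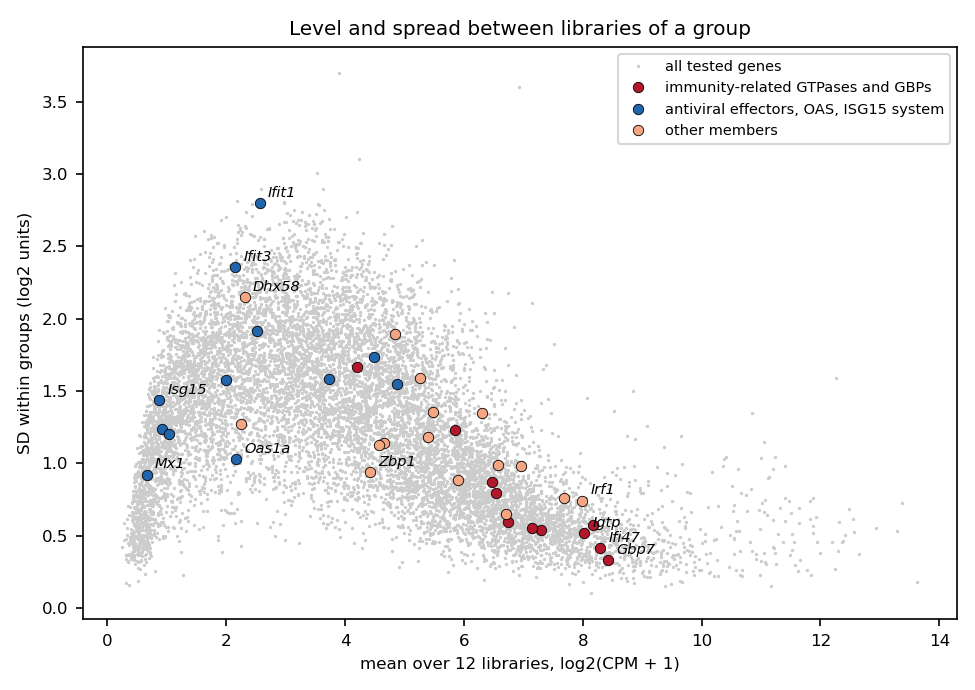
SD between libraries of a group (vertical, log2 units) against the mean over 12 libraries (horizontal, log2(CPM + 1)) for all 10868 tested genes (grey) and the 39 tested interferon-induced genes (coloured by role). Gbp7, Ifi47 and Igtp lie at the lower right with SDs of 0.332 to 0.516, and Ifit1 and Ifit3 at the upper left with SDs of 2.80 and 2.36.

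The spread between libraries of a group was smaller in the GTPases than in the antiviral effectors. Its median was 0.549 log2 units over the immunity-related GTPases and 0.583 over the Gbp genes, and 7 of these 11 genes were under 0.6. For comparison, the median was 0.631 over the 1563 genes with a mean of 100 to 400 CPM and 1.24 over all tested genes. The share of the 1563 genes under 0.6 was not counted, and Gbp2 and Gbp5 had lower means (76.0 and 31.0 CPM). No set of genes at the lower level of the antiviral effectors was compared, so level and role cannot be told apart there. For the antiviral effectors the median was 1.74, with 2.80 for Ifit1, 2.36 for Ifit3 and 1.74 for Ifit2, RNA-binding proteins encoded near each other on chromosome 19. Neither the low levels nor these spreads allow small differences to be seen in those genes.

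The sporadic genes were high in different libraries. Isg15, the ubiquitin-like modifier, reached 23.3 CPM in Wt islet 1b and 4.08 CPM in Wt NDL 1a, and lay under 1 CPM in the other 10 libraries. Ifit1 (88.4 CPM) and Ifit3 (172 CPM) peaked in Wt NDL 2, whereas Ifit2 (113 CPM) and Rsad2 (15.2 CPM), the antiviral enzyme viperin, peaked in Wt NDL 1b, where Ifit1 was at 0.147 and Ifit3 at 0.0734 CPM. Mx1 peaked in Wt NDL 1a (7.66 CPM), Oas2 in Lag3-deficient islet 1a (22.4 CPM), Oasl2 in Lag3-deficient islet 1b (5.06 CPM) and Bst2, the virus tether also called tetherin, in Wt islet 2 (66.9 CPM). Each of the 12 libraries held the highest value of at least 1 of the 42 genes, and the number per library ran from 1 to 7. The highest values of the 9 genes just named fell in 7 libraries.

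Lag3-deficient and Wt Tregs from islets were compared first. No interferon-induced gene passed the test. With limma, 0 of 39 had an adjusted p under 0.05 (Benjamini-Hochberg over all tested genes), and the share called among all 10868 genes was 0%; voom weights also called 0. At an unadjusted p under 0.05 there were 5 of 39, 1 higher and 4 lower, against 5.49% of all genes (1.66% higher and 3.84% lower). That count ran from 1 without Wt islet 1a to 6 without Lag3-deficient islet 1b, and it was 2 without Wt islet 1b or Wt NDL 1a. The libraries of the groups did not overlap for 3 genes (Gbp3 and Igtp higher, Zbp1 lower), against 9.40% of all genes (4.20% higher and 5.21% lower). The median log2 fold change was -0.30 over the 39 genes, 16 of them positive, and -0.08 over all tested genes. Without Wt islet 1b these medians were -0.06 and -0.10.

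Zbp1, a sensor of Z-form nucleic acid that can start necroptosis (chromosome 2, 173206612 to 173218923, minus strand, GRCm38), had the smallest p. It was at 8.09, 1.49 and 2.63 CPM in Lag3-deficient islet libraries, against 16.0, 17.0 and 69.0 CPM in Wt islet libraries. Its log2 fold change was -2.68 ± 1.02 (SE), with an adjusted p of 0.863 by limma. Without the 1b columns it was -1.84 ± 1.24, and between the 1b columns alone -4.27. Its lowest value lay in Lag3-deficient islet 2, and the 2 columns 1b lay farther apart than the others.

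Gbp3 (chromosome 3, 142560026 to 142573209, plus strand) was the gene with the smallest p among those higher in Lag3-deficient islet Tregs. It was at 235, 265 and 272 CPM there, against 46.6, 177 and 102 CPM in Wt islet Tregs. Its log2 fold change was 1.43 ± 0.56 (adjusted p = 0.863 by limma), 1.52 ± 0.65 without the 1b columns and 1.41 between them. The 3 Lag3-deficient islet values were close together and above the other 9 libraries of the study.

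Ifi35, a leucine zipper protein of the interferon response (chromosome 11, 101448407 to 101458698, plus strand), was at 2.06, 82.7 and 46.7 CPM in Lag3-deficient islet libraries, against 94.2, 55.8 and 117 CPM in Wt islet libraries. The log2 fold change of -1.90 ± 0.87 (adjusted p = 0.884 by limma) was -0.42 when Lag3-deficient islet 1a was left out, and it was -2.14 ± 1.16 without the 1b columns and -1.31 between them. The other genes with an unadjusted p under 0.05 were Stat2 (-2.07 ± 0.95) and Isg20, an exonuclease (-2.42 ± 1.12). In both, Lag3-deficient islet 2 was the lowest of all 12 libraries, and without it the values were -0.67 and -0.80.

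By role, the medians of the log2 fold changes were 0.12 over the 6 Gbp genes, -0.23 over the 5 immunity-related GTPases and -0.54 over the 4 transcription factors. The 3 tested OAS genes, which make the messenger that activates RNase L, were all positive, with a median of 1.32. Between the 1b columns alone all 3 were negative, at -0.70 for Oas1a, -0.19 for Oas2 and -0.73 for Oas3. These directions rest on point estimates whose 95% intervals were wide. The interval for Irf1 ran from -0.96 to 1.25, for Gbp7 from -0.86 to 0.73 and for Ifit1 from -3.07 to 4.62, so a change of more than 2-fold in either direction is outside the interval for Gbp7 and inside it for Ifit1.

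**Figure D3:**
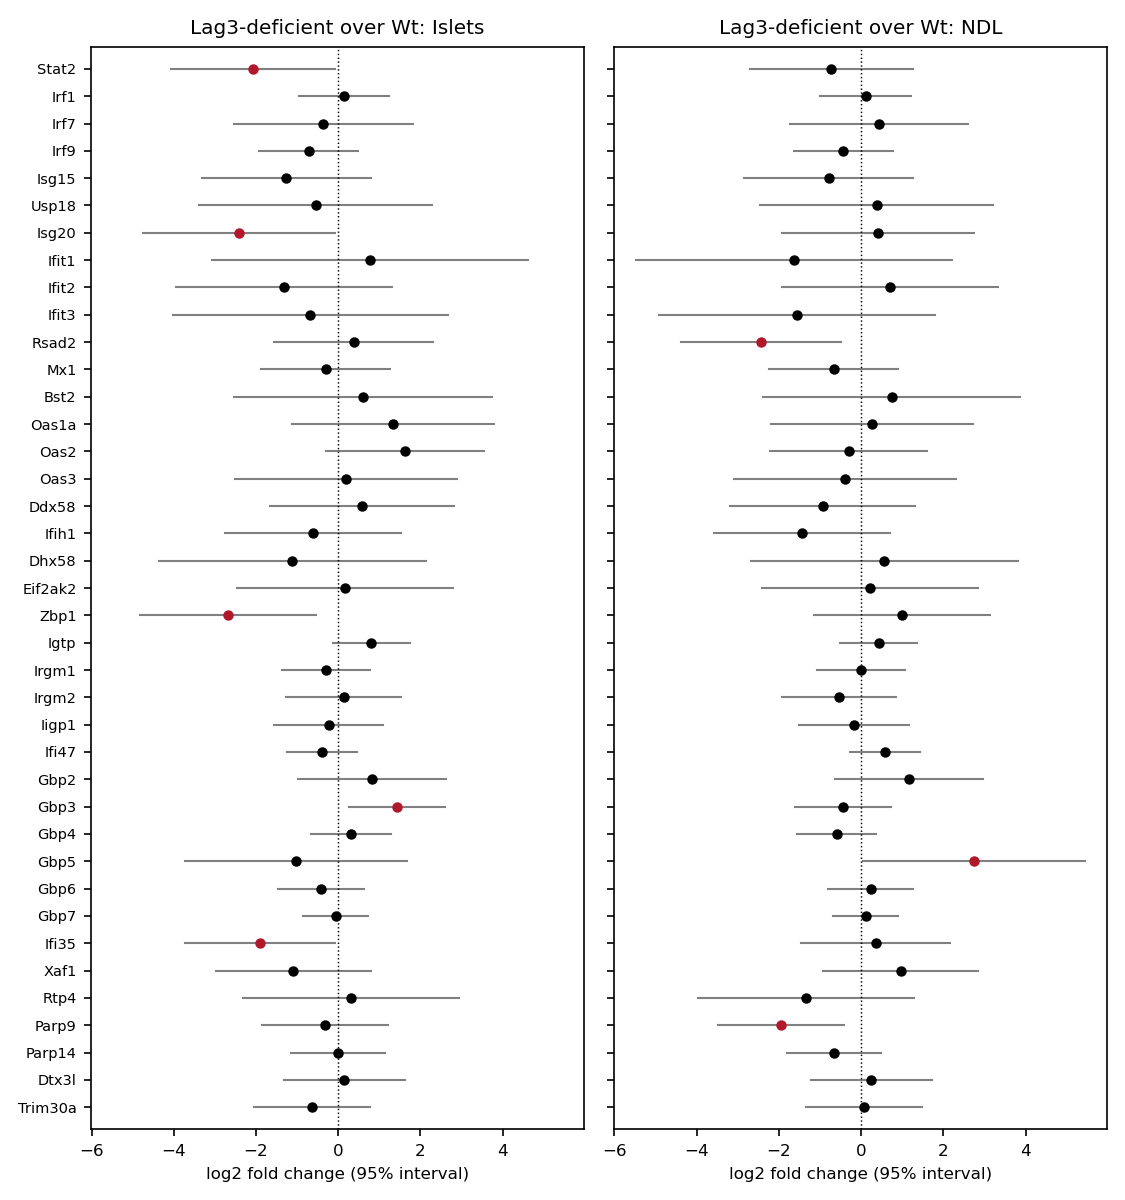
Log2 fold change of Lag3-deficient over Wt Tregs with its 95% interval for the 39 tested genes, in islets (left) and NDL (right). Red points have an unadjusted p under 0.05 (5 in islets and 3 in NDL), and none has an adjusted p under 0.05. The intervals of the GTPase rows from Igtp to Ifi47 are among the narrowest, and those of the Ifit rows among the widest.

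In NDL, which do not drain the pancreas, the same comparison again called 0 of 39 genes by limma, with 0% of all genes called. Voom weights also called 0. An unadjusted p under 0.05 was found for 3 genes (Gbp5 higher, Parp9 and Rsad2 lower), against 2.89% of all genes (1.54% higher and 1.35% lower). The libraries did not overlap for 3 genes (Ifi47 higher, Rtp4 and Parp9 lower), against 7.92% of all genes (4.32% higher and 3.61% lower). The median was 0.08 over the 39 genes, with 20 positive, and -0.01 over all tested genes. Its sign turned when any 1 of 4 libraries was left out (Lag3-deficient NDL 1a or 1b, Wt NDL 2 or 1b), down to -0.20.

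Parp9, which pairs with the ubiquitin ligase Dtx3l (chromosome 16, 35938470 to 35972605, plus strand), was at 35.7, 49.0 and 5.75 CPM in Lag3-deficient NDL libraries, against 85.0, 76.0 and 105 CPM in Wt NDL libraries. This gave a log2 fold change of -1.94 ± 0.73 (adjusted p = 1 by limma), -0.92 ± 0.71 without the 1b columns and -3.98 between them. One end of Parp9 overlaps Dtx3l on the opposite strand, from 35938470 to 35939151, and strandedness is not given in the sources used here, so reads in that stretch cannot be told apart. In Lag3-deficient NDL 1b Parp9 had its lowest value and Dtx3l its highest, 247 CPM. Rsad2 (chromosome 12, 26442746 to 26456452, minus strand) was at 0, 0.296 and 0 CPM in Lag3-deficient NDL libraries, against 11.8, 0 and 15.2 CPM in Wt NDL libraries. Its log2 fold change of -2.44 ± 0.93 (adjusted p = 1) was -1.66 ± 1.12 without the 1b columns and -4.02 between them, and it rested on 2 Wt libraries, with Wt NDL 2 listed at 0. Gbp5, which promotes inflammasome assembly, was at 18.0, 20.3 and 121 CPM in Lag3-deficient NDL libraries, against 21.99, 2.86 and 0.88 CPM in Wt NDL libraries. Its log2 fold change was 2.74 ± 1.29 (adjusted p = 1), 1.11 ± 1.55 without the 1b columns and 6.02 between them.

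The difference of the genotype effect between islets and NDL was tested as an interaction. It called 0 of 39 genes by limma, with 0% of all genes called, and 3 had an unadjusted p under 0.05, 2 positive and 1 negative, against 4.09% of all genes (1.38% positive and 2.71% negative). Voom weights also called 0. Zbp1 had the smallest p, with a difference of log2 fold changes of -3.67 ± 1.45 (adjusted p = 0.998; -2.82 ± 1.76 without the 1b columns and -5.30 between them). The values for Gbp3 were 1.88 ± 0.79, 1.52 ± 0.93 and 2.74, and those for Rsad2 2.82 ± 1.32, 1.64 ± 1.58 and 5.23. The median was -0.10 over the 39 genes and -0.11 over all tested genes, and its sign turned when any 1 of 5 libraries was left out.

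Islet and NDL Tregs were then compared within each genotype. In Lag3-deficient Tregs, limma called 0 of 39 genes, against 0.175% (19) of all genes, and voom weights called 0. An unadjusted p under 0.05 was found for 8 genes, 4 in each direction, against 9.16% of all genes (4.09% higher and 5.06% lower). The libraries did not overlap for 6 genes (Gbp3, Oas1a and Oas2 higher in islets, Zbp1, Ifi35 and Ifi47 lower). Over all genes the share was 13.4% (6.17% higher and 7.21% lower). For Oas2 the gap lay between 0.446 CPM in islet 2 and 0.233 CPM in NDL 1b. These were 6 and 3 rescaled counts, both in libraries scaled up. Oas2 passed the filter on low values only through islet libraries, so its direction between tissues is not independent of that filter. The median was 0.37, with 20 of 39 positive, against -0.07 over all tested genes. It was -0.01 without Lag3-deficient islet 1a and 0.05 without Lag3-deficient islet 1b. This comparison shares its islet libraries with the genotype comparison in islets.

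Zbp1 was at the islet values given above, 1.49 to 8.09 CPM, against 44.4, 77.9 and 57.4 CPM in Lag3-deficient NDL libraries. The log2 fold change of -3.77 ± 1.02 had an adjusted p of 0.177 by limma, and it was -3.64 ± 1.24 without the 1b columns and -4.01 between them. Gbp3 was at 235 to 272 CPM in islets, against 61.4, 97.9 and 39.2 CPM in Lag3-deficient NDL libraries, with a log2 fold change of 2.04 ± 0.56 (adjusted p = 0.177; 1.72 ± 0.65 without the 1b columns and 2.76 between them). Ifi35 was at 2.06 to 82.7 CPM in islets, against 208, 202 and 91.7 CPM in Lag3-deficient NDL libraries. The fitted log2 fold change was -2.78 ± 0.87 (adjusted p = 0.287; -3.65 ± 1.16 without the 1b columns and -0.96 between them), and -1.32 without Lag3-deficient islet 1a. For each of these 3 genes every islet value lay on the same side of every NDL value.

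**Figure D4:**
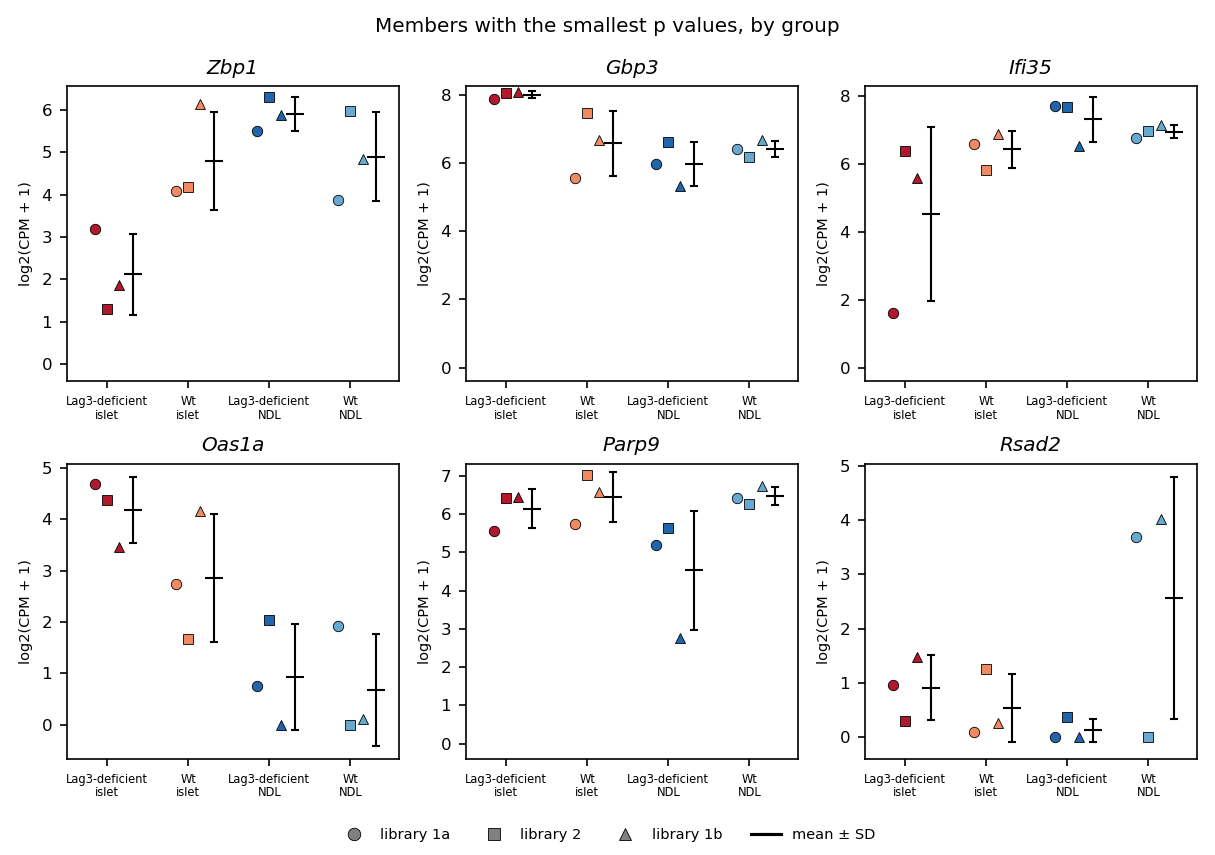
Level of 6 interferon-induced genes with small unadjusted p values, as log2(CPM + 1), in the libraries of each group (circle 1a, square 2, triangle 1b), with mean ± SD of 3 libraries. Zbp1 is lowest and Gbp3 highest in the 3 Lag3-deficient islet libraries, Oas1a is at or under 3.13 CPM in all 6 NDL libraries, and Rsad2 is above 2 CPM only in Wt NDL 1a and 1b.

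In Wt Tregs, limma called 0 of 39 genes between islets and NDL, against 0.221% (24) of all genes, and voom weights called 0. Rsad2 was the 1 gene with an unadjusted p under 0.05, lower in islets, against 7.65% of all genes (4.78% higher and 2.86% lower). The libraries did not overlap for 5 genes (Irgm1, Gbp5, Gbp6 and Gbp7 higher in islets, Rtp4 lower), against 14.3% of all genes (8.03% higher and 6.22% lower). Rsad2 was at 0.0643, 1.40 and 0.205 CPM in Wt islet libraries, against 11.8, 0 and 15.2 CPM in Wt NDL libraries (log2 fold change -2.03 ± 0.93, adjusted p = 0.615; -1.17 ± 1.12 without the 1b columns and -3.75 between them). Gbp6 was at 214, 293 and 192 CPM in Wt islet libraries, against 119.6, 185 and 64.3 CPM in Wt NDL libraries, with a log2 fold change of 1.02 ± 0.50 (adjusted p = 0.656; 0.73 ± 0.51 without the 1b columns and 1.57 between them). Gbp5 was at 30.5, 22.3 and 50.8 CPM in Wt islet libraries, against 21.99, 2.86 and 0.88 CPM in Wt NDL libraries. The fitted log2 fold change was 2.61 ± 1.29 (adjusted p = 0.66; 1.51 ± 1.55 without the 1b columns and 4.78 between them). The median over the 39 genes was 0.16, with 22 positive, against 0.04 over all tested genes, and it was -0.04 without Wt islet 1b.

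Over both genotypes, limma again called 0 of 39 genes between islets and NDL, against 1.22% (133) of all genes, and voom weights called 0. An unadjusted p under 0.05 was found for 5 genes (Oas1a, Gbp3 and Bst2 higher, Ifi35 and Zbp1 lower), against 11.9% of all genes (6.27% higher and 5.59% lower). For 0 genes did all 6 islet libraries lie apart from all 6 NDL libraries, against 1.87% of all genes (1.38% higher and 0.488% lower). The median log2 fold change was 0.12 over the 39 genes, with 21 positive, and -0.03 over all tested genes. It was -0.07 without Lag3-deficient islet 1a and -0.01 without Wt islet 1b or Wt NDL 2, and 0.31 without Lag3-deficient islet 2 or Wt islet 2.

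Oas1a (chromosome 5, 120896256 to 120907521, minus strand) had the smallest p. It was at 25.0, 19.9 and 9.9998 CPM in Lag3-deficient islet libraries and 5.66, 2.20 and 16.8 CPM in Wt islet libraries. NDL libraries held 0.683, 3.13 and 0 CPM with Lag3 deficiency and 2.81, 0 and 0.0734 CPM in Wt libraries. The islet and NDL values overlapped only through Wt islet 2, and the log2 fold change was 2.71 ± 0.83 (adjusted p = 0.157 by limma), 2.23 ± 0.96 without the 1b columns and 3.76 between them. Gbp3 gave 1.10 ± 0.39 (adjusted p = 0.24; 0.96 ± 0.46 and 1.39) and Ifi35 -1.65 ± 0.61 (adjusted p = 0.268; -2.16 ± 0.82 and -0.60). Counts of Oas1a are uncertain, since the Oas1 genes are a family of near-identical neighbours.

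Of the 11 immunity-related GTPases and Gbp genes, 10 had a positive point estimate in islets over NDL, all but Ifi47. Over all tested genes 5264 of 10868 were positive. Some of the 11 are neighbouring genes, so their estimates are not separate observations. Without the 1b columns 9 of the 11 were positive, with Irgm2 negative as well, and between those columns alone Irgm1 and Ifi47 were negative. None passed the test. Their summed level was 2395 ± 273 CPM in Lag3-deficient islet libraries and 2116 ± 114 CPM in Wt islet libraries (SD, n = 3 each). It was 1877 ± 141 CPM in Lag3-deficient NDL libraries and 1730.4 ± 305 CPM in Wt NDL libraries. The 6 islet libraries lay between 2023 and 2705 CPM and the 6 NDL libraries between 1399 and 2003 CPM. The ranges overlapped under each of the other 4 scalings, for example 1998 to 2407 CPM in islets against 1245 to 2316 CPM in NDL with library totals only. The sum has no test here.

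Other genes of the interferon pathway were taken from a list of 92, of which 91 were in the table and 74 passed the filter. Among the ligands 1 of 7 passed, Ifng, and the type I interferon gene Ifnb1 was at most 0.155 CPM in any library. Of the receptors and kinases 8 of 9 passed, and of the signalling factors and inhibitors 11 of 11. Between the genotypes, limma called 0 of 74 in islets and 0 of 74 in NDL, and the unadjusted p was under 0.05 for 0 and 2 of them, against 5.49% and 2.89% of all genes. The interaction called 0 of 74, with 3 at an unadjusted p under 0.05, against 4.09% of all genes. Between islets and NDL limma called 0 of 74 in Lag3-deficient Tregs, 0 of 74 in Wt Tregs and, over both genotypes, 2 of 74, both higher in islets, beside the 1.22% of all genes given above. Unadjusted p values under 0.05 numbered 6, 8 and 11 in these 3 comparisons, against 9.16%, 7.65% and 11.9% of all genes, so these counts lay near the shares over all genes.

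The 2 genes were Cxcl10, a chemokine for Cxcr3-bearing T cells that Ifng induces, and Irf8, a transcription factor. Cxcl10 was at 96.7, 8.47 and 37.6 CPM in Lag3-deficient islet libraries and 62.9, 69.9 and 76.6 CPM in Wt islet libraries. Lag3-deficient NDL values were 2.34, 0 and 0 CPM, and those of Wt NDL 12.1, 2.54 and 0 CPM. Only Lag3-deficient islet 2 and Wt NDL 1a overlapped. The log2 fold change was 4.38 ± 0.95 (adjusted p = 0.024 by limma). The call was lost in 7 of 12 fits that left out 1 library, with adjusted p values up to 0.0671 and log2 fold changes of 3.91 to 4.82. It was kept without Lag3-deficient islet 2 or 1b, Lag3-deficient NDL 1a or 1b, or Wt NDL 1a. It was also lost without the 1b columns.

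Irf8 was at 77.7, 70.9 and 72.4 CPM in Lag3-deficient islet libraries and 160.0, 119 and 94.5 CPM in Wt islet libraries. Lag3-deficient NDL values were 13.2, 43.0 and 22.4 CPM, and those of Wt NDL 19.0, 33.2 and 2.42 CPM, so the tissues did not overlap. The log2 fold change of 2.41 ± 0.59 had an adjusted p of 0.0499 by limma, at the threshold. The call was kept without Wt NDL 2 and lost without any other single library, with adjusted p values up to 0.145 and log2 fold changes of 1.91 to 2.75. Of the 74 genes, 3 did not overlap between the tissues, all higher in islets, against 1.87% of all genes (1.38% higher). Besides Irf8 these were Ifngr1 and Ciita, the latter by 0.409 against 0.390 CPM (Wt islet 1b and Wt NDL 2). Ifngr1 is a chain of the Ifng receptor. It was at 189, 283 and 282 CPM in Lag3-deficient islet libraries and 182, 212 and 237 CPM in Wt islet libraries, against 156, 125 and 154 CPM in Lag3-deficient NDL libraries and 124, 72.1 and 53.7 CPM in Wt NDL libraries (log2 fold change 1.09 ± 0.32, adjusted p = 0.132).

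**Figure D5:**
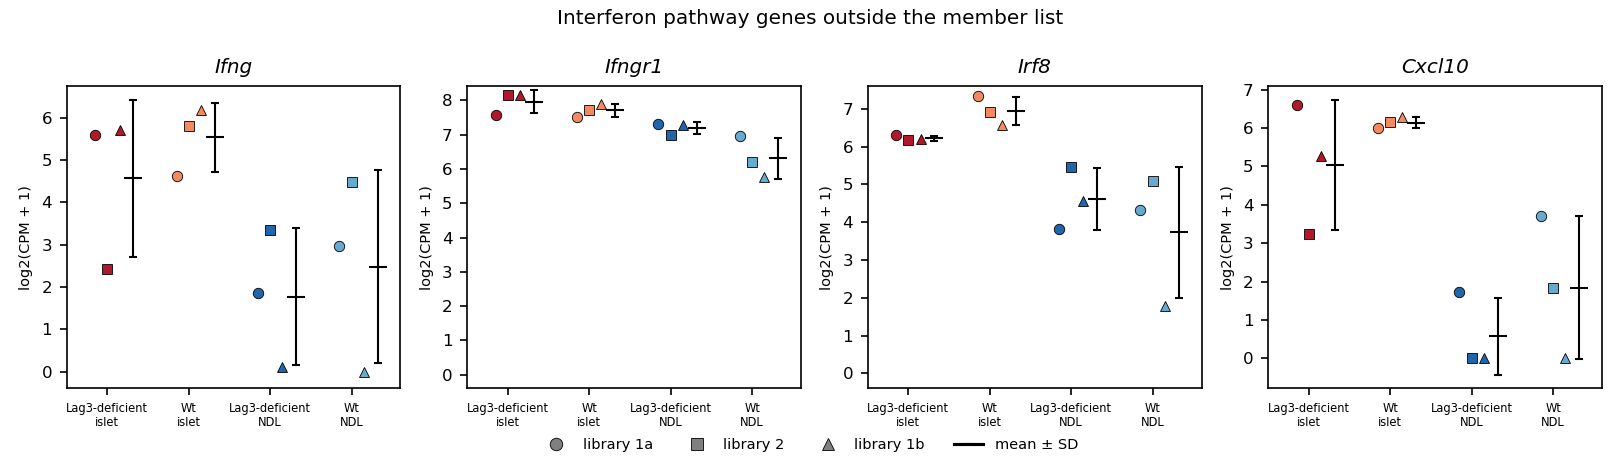
Level of Ifng, Ifngr1, Irf8 and Cxcl10 as log2(CPM + 1) in the libraries of each group (circle 1a, square 2, triangle 1b), with mean ± SD of 3 libraries. All 6 islet libraries lie above all 6 NDL libraries for Ifngr1 and Irf8, while Lag3-deficient islet 2 lies within the NDL range for Ifng and Cxcl10.

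Markers of other cells also reached higher levels in islets. The summed level of 11 markers of myeloid cells and plasmacytoid dendritic cells was 4.42 to 143 CPM in Lag3-deficient islet libraries and 92.2 to 152 CPM in Wt islet libraries, against 0.932 to 63.8 CPM in Lag3-deficient NDL libraries and 10.2 to 36.6 CPM in Wt NDL libraries. Of their defining markers, Csf1r was at 2.89, 0 and 31.2 CPM in Wt islet libraries and Siglech at 45.1, 0.0667 and 26.1 CPM. In Lag3-deficient islet libraries Csf1r was at most 0.147 and Siglech at most 0.594 CPM, and in NDL at most 0.130 and 0.325 CPM. Lyz2 reached 92.6 CPM in Wt islet 1a and 33.4 CPM in Lag3-deficient NDL 2. Csf1r was at 0 in 5 libraries, Siglech in 4 and Lyz2 in 4. The 6 B cell markers summed to 162 to 482 CPM in Lag3-deficient islet libraries and 315 to 551 CPM in Wt islet libraries, against 102 to 196 CPM in Lag3-deficient NDL libraries and 48.3 to 152 CPM in Wt NDL libraries. The 9 exocrine pancreas markers summed to 45.2 to 399.6 CPM in Lag3-deficient islet libraries and 142 to 2179 CPM in Wt islet libraries, against at most 0.946 CPM in Lag3-deficient NDL libraries and 4.30 CPM in Wt NDL libraries. The 8 CD8 T and NK cell markers summed to 91.2 to 431 CPM in Lag3-deficient islet libraries and 221 to 369 CPM in Wt islet libraries, against 51.5 to 119 CPM in Lag3-deficient NDL libraries and 19.9 to 31.5 CPM in Wt NDL libraries. Nkg7 made up most of that sum in every library, and the defining marker Ncr1 was at 0 in 8 of 12 libraries. The 6 endocrine markers reached 35.3 CPM in Lag3-deficient islet libraries and 212 CPM in Wt islet libraries, against at most 0.237 and 0.390 CPM in Lag3-deficient and Wt NDL libraries. The 6 stromal markers overlapped between the tissues, with 1.57 to 73.4 CPM in islets and 6.68 to 122 CPM in NDL. Irf8 is also expressed by myeloid and B cells, Cxcl10 by myeloid cells, and Bst2 stands in both the interferon list and the myeloid and dendritic cell list. The part of these cells in the islet values was not tested. In bulk samples fewer cells of a type and less RNA per cell cannot be told apart.

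By position, 8 of the 42 genes lie on chromosome 11, 7 on chromosome 5, 5 on chromosome 3 and 5 on chromosome 16 (GRCm38). The share of all genes on each chromosome was not counted. Gbp5, Gbp7, Gbp3 and Gbp2 follow each other on chromosome 3 between 142493978 and 142638008, all on the plus strand. Their point estimates differed. In Lag3-deficient over Wt islet Tregs the log2 fold change was 1.43 for Gbp3, -0.06 for Gbp7 and -1.02 for Gbp5, none past the test. The value for Gbp5 was 0.23 without Lag3-deficient islet 2, and that for Gbp7 lay near 0 on either side. Exon bases were shared with another gene on the same strand for 9 of the 42 genes and on the opposite strand for 11, and how such reads were counted is not given in the sources used here.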

How the data were processed

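The deposited table holds rescaled counts, a signal of whole numbers that the authors had scaled to nearly equal library totals (a spread of 0.903%). A second deposited table, a signal with nearly the same distribution in all columns, served as an alternative input. The submitters' processing notes name TopHat2, DESeq2 and mm10, with no version or role. A count test had been planned, but the values were not raw counts. So limma 3.58.1 (R 4.3.3) with a mean-variance trend was run on log2(CPM + 1) over the 10868 of 23361 genes that reached 10 rescaled counts in 3 or more libraries. CPM used TMM factors (trimmed mean of M-values; 30% of M and 5% of A trimmed) computed on the tested genes. The 12 libraries entered 1 model with the 4 groups as terms and 8 residual degrees of freedom, giving 6 comparisons, with p-values adjusted over all tested genes (Benjamini-Hochberg) and a threshold of 0.05. Fold changes on this scale understate the change of low genes. The fit was run on simulated data with large planted changes in well-expressed genes. That run does not show how the fit does for smaller changes or low genes. Columns were tied to groups, not to samples, by their names. The listed genes, the pathway list and the markers were chosen with earlier results of these data known. Values are given for the 3 genes with the smallest p in each comparison and the 6 with the highest mean CPM; other genes were named after their values were seen. Gene positions are from GENCODE (GRCm38), and promoter windows from RefSeq (GRCm38.p6). Alternatives were 2 other pseudocounts (0.25 and 5), other scalings, no filter, each library left out, the doubted libraries left out, a term for the 1b columns, a replicate block, voom weights, fits of the compared groups alone and the second table.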

Additional observations from a re-analysis of the deposited data

How the results depend on the processing

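The count of interferon-induced genes past the threshold was 0 in each of the 6 comparisons under all 25 alternatives (24 for the comparisons over all 4 groups), including 0 to 0 when each library was left out in turn. For the 3 genes with the smallest p in each comparison, and for Stat2 and Isg20 in islets, the log2 fold change kept its sign and stayed short of the threshold. In islets Gbp7 (-0.06) was 0.0034 with RLE size factors, 0.063 without the 1b columns and -0.11 to 0.026 with 1 library left out. Gbp5 there (-1.02) was 0.24 without the 3 libraries scaled up and -1.85 to 0.23 with 1 library left out. For Oas1a over both genotypes the range was 1.45 to 5.02 (adjusted p 0.0632 to 0.565). The calls of the pathway genes were less stable: Cxcl10 passed in 15 of 24 alternatives and Irf8 in 6 of 24, always higher in islets. The number of all genes called moved more. Between genotypes in islets it was 0, and 5 without Lag3-deficient islet 1b. Between tissues in Lag3-deficient Tregs it was 19, against 11 to 38 with 1 library left out (11 without islet 2, 38 without islet 1b, 12 without NDL 1a or NDL 2, 34 without Wt NDL 1b), 7 with no filter, 11 with the compared groups alone, 29 with a term for the 1b columns, 31 in the second table and 32 without the 1b columns. In Wt Tregs it was 24, against 9 to 30 with 1 library left out (9 without islet 1a, 10 without islet 1b or NDL 1b, 11 without NDL 1a, 13 without NDL 2 and 15 without Lag3-deficient NDL 2), 10 without the 1b columns, 11 with no filter and 57 with voom weights. Over both genotypes it was 133, against 71 to 122 (71 without Wt islet 1a, 74 without Wt islet 1b, 76 without Lag3-deficient NDL 1a, 79 without Wt NDL 1a or NDL 2, 88 without Lag3-deficient NDL 2), 40 with no filter and 55 without the 1b columns. The cause was not tested. With library totals only, the median log2 fold change of all genes between tissues in Lag3-deficient Tregs was -0.26 instead of -0.07, and that of the interferon-induced genes 0.16 instead of 0.37. TMM factors over the whole table and a replicate block were added after seeing the data. The headers repeat number 1 in each group, so the block took columns 1a, 2 and 1b in table order. Of 18 pairs of like-named columns, 2 deviated together from their group means with a correlation over 0.1 (-0.09 to 0.16 in all). This does not settle whether like-named columns share a batch or an animal, and the 1b columns had in common the higher Rn45s share given above. With the block 0 interferon-induced genes were called in each comparison, Irf8 missed the threshold (adjusted p = 0.0531 by limma), and 15 genes were called between tissues in Wt Tregs, 26 in Lag3-deficient Tregs and 124 over both genotypes. Depth is unknown, so differences in genes under 1 CPM may not be detectable.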
